A study of Mus musculus with 8 samples.

Results

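The unstressed medial prefrontal cortex was described from 4 of the 8 arrays of a study of acute immobilization stress in mice. The 4 arrays were chosen by their titles alone, as the samples with no stress, and are called replicates 5 to 8. They held RNA from bilateral 1 mm punches of the medial prefrontal cortex of male mice aged 10 weeks that were not immobilized. The other 4 arrays came from mice immobilized for 2 h, with gene changes evaluated 6 days later, and no value from them was used. The labels give no strain and do not say whether each array holds 1 animal or a pool, so the spread between arrays may be biological, anatomical or technical.

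The medial prefrontal cortex lies on the inner wall of the frontal lobe and takes part in the control of emotion, decisions and the response to stress. Most of its neurons are glutamatergic pyramidal cells arranged in layers, with a minority of GABAergic interneurons, and its RNA also comes from astrocytes, oligodendrocytes, microglia and vessels. The corpus callosum, the septum and the striatum lie close by, and the olfactory bulb and the nasal cavity lie in front of it. Monoamine neurons send axons into the cortex from the brainstem, so their receptors, but not the enzymes of the transmitters, are made by cortical cells.

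Signal was read on Illumina bead arrays of 45281 probes, and is given on the log2 scale. A probe was counted as detected where its deposited detection p-value was under 0.05 on all 4 arrays, which corresponds to a log2 signal of about 6.09 to 6.13. Between 20062 and 20527 probes passed on each array, and 18207 (40.2%) passed on all 4. Among 19057 named genes, 10180 (53.4%) had a probe detected on all 4 arrays, 1639 on 1 to 3 arrays and 7238 (38.0%) on none. Each gene is represented by its detected probe of highest mean signal, and values per array follow in the order of replicates 5, 6, 7 and 8.

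Most pyramidal cell markers were bright on all 4 arrays. Slc17a7, the vesicular glutamate transporter of cortical pyramidal neurons, had log2 signals of 12.72, 12.28, 13.03 and 12.58. Nrgn, a calmodulin-binding protein of their dendrites, had 12.73, 12.07, 12.65 and 12.50, and Tbr1, a transcription factor of deep cortical neurons, had 9.48, 9.73, 10.26 and 9.42. Fezf2, which specifies subcortically projecting neurons, had 11.88, 11.51, 11.63 and 11.01. It is 1 of 12 deep-layer markers, of which 8 were detected on all 4 arrays, against 53.4% of all named genes. The other 4, Foxp2, Syt6, Nxph4 and Cplx3, were undetected on each array. Of 8 cortical excitatory markers named on the array, 7 were detected on all 4 arrays, against the same 53.4%. Their median signal lay at the 97.5th percentile of detected genes. Emx1, a homeodomain factor of the cortical lineage, lay near the limit with 6.45, 6.49, 6.49 and 6.72, and Neurod6 missed it on 1 array.

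Replicate 6 stood apart from the other 3 in several sets of marker genes. Mbp, the main soluble protein of myelin, had log2 signals of 12.50, 13.70, 12.68 and 12.25, and Mog, a surface protein of myelin, had 7.40, 9.20, 7.78 and 7.35. The next detected Mbp probe went against this, with 9.61, 9.10, 9.43 and 9.40 and its lowest value in replicate 6, while that of Mog had 7.01, 8.74, 7.54 and 6.94. At their brightest probes, all 10 detected myelin genes were highest in replicate 6 and all 10 were lowest in replicate 8. Their mean deviation from the 4-array mean was -0.35, 1.02, -0.06 and -0.61. The shares of all detected genes highest or lowest on each array were not computed, for these or for later counts of this kind. Without replicate 6, the myelin deviation of replicate 8 from the mean of the remaining arrays was -0.27. Zic1, a zinc finger factor of the septum, had 9.70, 11.63, 8.81 and 9.63, and Zic2 and Zic4 were highest on the same array. Prkcd, a protein kinase C abundant in thalamus and in parts of the septum and amygdala, had 7.69, 10.30, 7.37 and 7.57. Cux2, a factor of upper cortical layers, had 9.15, 8.04, 9.43 and 9.80, so it was lowest in replicate 6.

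The mean deviation in replicate 6 was 0.76 for 6 septal genes, 0.43 for 9 striatal genes and -0.56 for 6 upper-layer genes. On that array 4 of the 6 septal and 6 of the 9 striatal genes were highest. The septal list member Hrh3 and the striatal list member Foxp1 were lowest there, with 8.60 and 8.32. For 6 thalamic genes the mean deviation in replicate 6 was 0.50, but the median was 0.13. The largest single deviation, that of Prkcd, was 2.07, and 3 of the 6 were highest there. Isl1, a homeodomain factor of striatal and septal neurons, had 5.53, 8.35, 5.30 and 5.50 and was detected on replicate 6 alone. In bulk tissue, fewer cells of a type and less RNA per cell cannot be told apart, and whether the position of the punch had a part in these differences was not tested. Counts of wide genes are given with and without replicate 6. The series also holds a second deposited table whose columns carry the same sample names but other values, and which of them holds the labelled arrays could not be settled. In that table the myelin deviation was 0.72, 0.15, -0.73 and -0.13, so replicate 5 was highest. Septal genes were likewise highest in replicate 5 there, at 0.56 against 0.26 in replicate 6, and the thalamic and striatal values in replicate 6 were -0.21 and 0.12. Upper-layer genes were lowest in replicate 6 in both tables, at -0.53 in the second.

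Replicate 5 carried signals of genes of the olfactory mucosa, the sensory lining of the nose. These genes were picked after their values were seen. Omp, the olfactory marker protein of mature olfactory sensory neurons, had log2 signals of 9.88, 5.52, 5.95 and 5.66 at its probe of highest signal. The other Omp probe was near the limit and level, with 6.42, 6.26, 6.41 and 6.35. Cyp2a5, a cytochrome P450 of olfactory mucosa and liver, had 9.83, 5.95, 5.86 and 5.74, and all 5 of its probes were detected on replicate 5 and on no other array. Scgb1c1, a secretoglobin of the nasal mucosa, had 8.79, 5.52, 6.11 and 5.43, and S100a5, a calcium-binding protein of olfactory sensory neurons, had 8.73, 5.70, 6.23 and 5.50.

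Further genes of the nose also had their highest signal on replicate 5. Cyp2g1, an olfactory-specific cytochrome P450, had 7.97, 5.82, 5.67 and 5.39, and Cnga2, the cyclic nucleotide-gated channel of olfactory transduction, had 6.56, 5.29, 5.38 and 5.52. A list of 28 nasal and olfactory genes on the array was drawn up after replicate 5 was seen. Each was read at its probe of highest single signal. Genes and probes were thus chosen with these values known, so the counts describe the list and are no separate support. Of the 28, 22 were highest in replicate 5. In 11 the signal there exceeded each other array by over 1 log2 unit. At least 1 probe was detected for 16 of the 28 on replicate 5, and for 4, 8 and 6 on replicates 6, 7 and 8. Of all probes, 44.3%, 44.6%, 44.7% and 45.3% were detected on replicates 5, 6, 7 and 8, which counts probes and not genes. Obp1a and Obp2a, odorant-binding proteins of nasal glands, and the nasal mucin Muc5ac were undetected on all 4. The 22 include Obp2a, Muc5ac and other undetected genes, whose order lies below the limit. The share of all genes highest on replicate 5 was not computed. Among genes detected on a single array, 8 of the 139 seen only on replicate 5 and 5 of the 196 seen only on replicate 6 lay over 1 log2 unit above the detection limit. None of the 153 on replicate 7 or the 170 on replicate 8 did. In the second table, by contrast, 6 of the 28 genes were highest in replicate 5 and 10 in replicate 7. There S100a5 had 5.90, 5.56, 8.37 and 5.78 and Omp had 6.08, 5.56, 7.83 and 5.98, so the highest signal of both was on replicate 7.

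**Figure D1:**
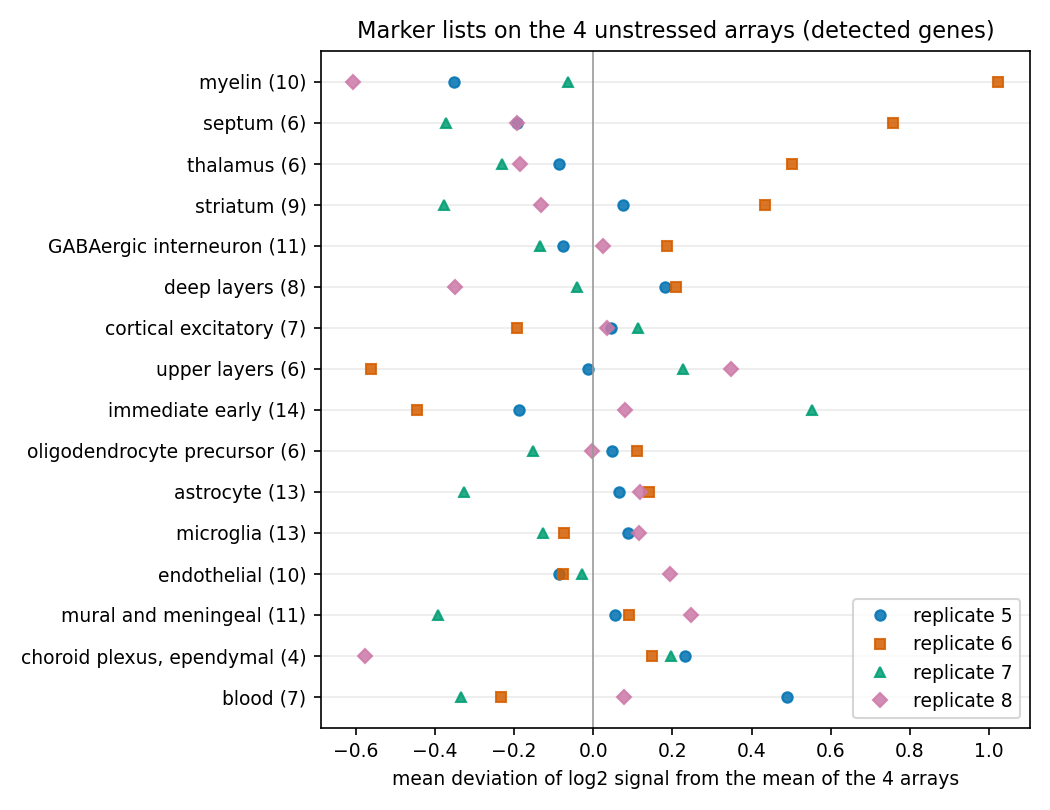
Mean deviation of log2 signal from the mean of the 4 unstressed arrays, for 16 marker lists (detected genes of each list in parentheses). Each point is 1 array. Myelin, septal and striatal genes lie to the right in replicate 6, as does the thalamic mean, which Prkcd carries (median 0.13). Immediate early genes lie to the right in replicate 7 and blood genes in replicate 5.

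Signals of different probes are not amounts of transcript, because probes bind with different strength and to different transcript ends. Among 3737 genes with at least 2 detected probes, the brightest and the next probe differed by a median of 0.90 log2 units (1.86-fold). In 46.9% of these genes the gap exceeded 1 log2 unit, and the 90th percentile of the gap was 3.14 log2 units (8.81-fold). Of 11534 other probes for detected genes, 4687 (40.6%) were detected on no array. Ranks of signal and paralogue order are therefore given as order of signal, and an undetected probe does not show that a transcript is absent. Snap25, a SNARE protein that every neuron uses for transmitter release, had 5.59, 5.61, 5.84 and 5.48 and was undetected on all 4 arrays.

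Among named genes, ND4, a complex I subunit encoded by mitochondrial DNA, had the highest mean signal, with 14.56, 14.48, 14.56 and 14.58. Fth1, the heavy chain of ferritin, followed with 14.48, 14.53, 14.48 and 14.53, and Ckb, the brain form of cytosolic creatine kinase, had 14.34, 14.39, 14.42 and 14.46. The spread of each between arrays was at most 0.12 log2 units. The rest of the brightest 20 comprised the ribosomal protein genes Rpl23, Rpl41, Rps29, Rplp1, Rpl38 and Rpl37, the mitochondrial CYTB and ND1, and Atp5b, Eef1a1, Tuba1b, Ppia, Prnp, Olfm1, Ubb-ps, Nme7 and Uba6. Their means ran between 13.95 and 14.43.

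Names near the top depended on the probe. Nme7, a nucleoside diphosphate kinase family member, had 14.42, 14.31, 14.32 and 14.14 at its brightest probe, while 5 other detected probes had means between 7.52 and 13.55. Rpl23 had other detected probes at 9.12 and 13.32. Ubb-ps is annotated as a pseudogene of a ubiquitin gene, and its signal cannot be assigned between such near-identical copies. In addition, 16 unnamed probes were brighter than the gene in the 20th place.

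Families were formed from gene symbols, without pseudogenes and antisense genes. All 16 named ATP synthase subunit genes, 33 of 34 complex I subunit genes, 72 of 76 mitochondrial ribosomal protein genes and 28 of 31 aminoacyl-tRNA synthetase genes were detected on all 4 arrays. Cytosolic ribosomal protein genes were detected in 54 of 61 cases, with a median log2 signal of 12.38 between extremes of 7.38 and 14.43. Detection was less complete for other core machinery, with 10 of 15 cytochrome c oxidase subunit genes, 7 of 9 chaperonin subunit genes, 16 of 20 V-type ATPase subunit genes and 36 of 42 initiation factor genes. Of 59 genes of Rab GTPases, which direct vesicle traffic, 48 were detected, led by Rab11b, Rab2a, Rab6b and Rab3a. Potassium channel genes were detected in 48 of 82 cases (58.5%), near the 53.4% of all named genes, with a median of 7.67.

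At the other end, 4 of 1071 olfactory receptor genes, 1 of 170 vomeronasal receptor genes, 0 of 35 taste receptor genes and 0 of 41 beta-defensin genes were detected on all 4 arrays. The 4 olfactory receptors had mean signals between 6.24 and 6.46, close to the detection limit. Only Hoxc4 and Hoxc10 of 38 Hox genes, which pattern the hindbrain, cord and limbs, were detected, each with a mean signal of 6.27. Krt12 stood out among 49 keratin genes with 8.96, 9.59, 10.34 and 10.44, and a second probe of the gene had a mean of 9.79. Of 14 markers of other tissues, 12 were undetected on all 4 arrays, against 38.0% of all named genes. Among the 12 were the liver gene Alb, the muscle gene Ckm, the pancreatic Ins2 and the pituitary Prl.

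**Figure D2:**
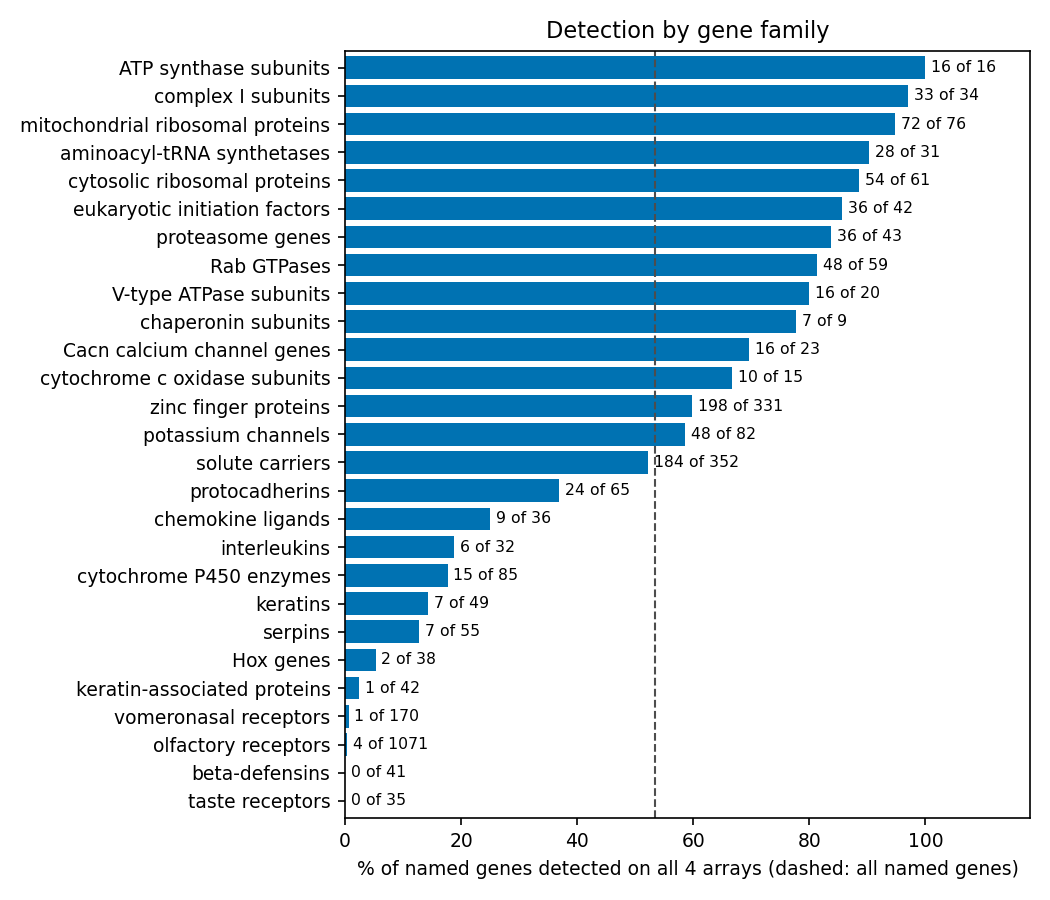
Percentage of the named genes of 27 families detected on all 4 unstressed arrays, with the counts beside each bar. The dashed line marks the 53.4% of all named genes that were detected.

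Of 46 families compared by paralogue, 40 had at least 2 detected members. The brightest member was the same on all 4 arrays in 34 of these families, and the full order of members in 19. In 4 families the gap between the leading and the next member exceeded the 90th percentile of gaps between probes of the same gene. These were the enolases, the lactate dehydrogenases, the synucleins and the apolipoproteins. In the rest the order of signal lies within the range by which probes of a single gene differ.

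Enolases and lactate dehydrogenases catalyse late steps of glycolysis. Eno2, the neuronal enolase, had 13.23, 13.29, 13.17 and 13.18. Eno3, the muscle form, had 7.33, 6.98, 7.36 and 7.40, and the gap was 5.95 ± 0.24 (SD, n = 4). Eno1 was not analysed here. Ldha had 12.23, 12.21, 12.27 and 12.07, and Ldhb had 7.13, 7.19, 7.27 and 7.30, a gap of 4.97 ± 0.14. The A chain thus had the brighter probe on each array. Ldhc, the testis form, was undetected.

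Sncb, the synuclein beta of presynaptic terminals, had 11.94, 11.82, 12.03 and 12.18, and Sncg had 6.97, 7.39, 7.08 and 7.34, a gap of 4.80 ± 0.25. Apoe, the main lipid carrier made by astrocytes, had 11.86, 12.04, 11.36 and 12.10, while Apoa1, a plasma apolipoprotein of liver and gut, had 6.22, 6.37, 6.40 and 6.44. Of 12 apolipoprotein genes on the array, 7 were undetected on all 4, against 38.0% of all named genes. In other glycolytic families a single member was detected. Pkm, the muscle and brain pyruvate kinase, had 13.16, 13.01, 13.03 and 13.04, and the liver gene Pklr was undetected. Likewise Gapdh had a mean of 13.23 ± 0.06 and the sperm gene Gapdhs was undetected.

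Creatine kinases buffer ATP. Ckb led Ckmt1, the mitochondrial form, by 1.99 ± 0.03 log2 units, and the gap ran between 1.95 and 2.03. Ckmt1 had 12.39, 12.40, 12.45 and 12.43, and the muscle form Ckm was undetected. This was among the most even orders between the arrays, although its size lies below the 90th percentile of probe gaps. Aldoc and Aldoa, the astrocytic and the general aldolase, were not separable, with means of 13.23 ± 0.17 and 13.10 ± 0.14 and an order that changed between arrays.

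**Figure D3:**
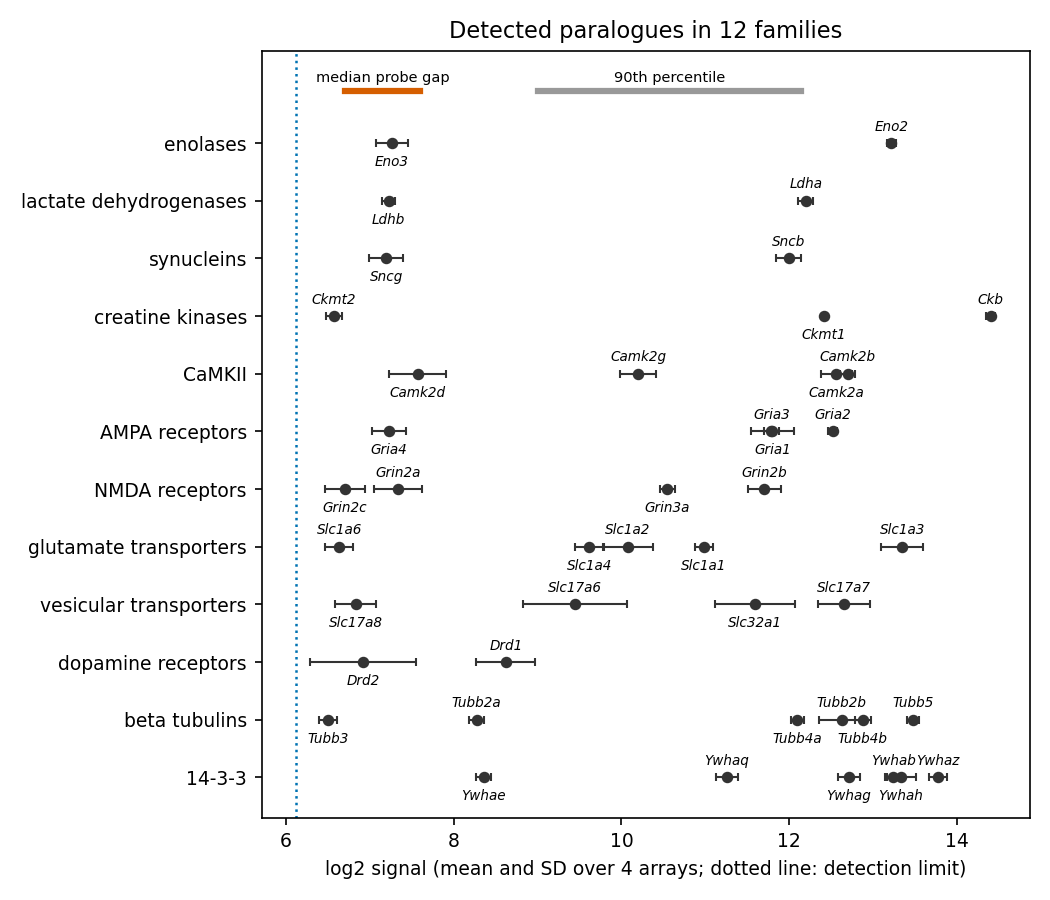
Mean log2 signal with SD over the 4 unstressed arrays for the detected members of 12 families. The coloured bars at the top give the median (0.90) and the 90th percentile (3.14) of the gap between the brightest and next probe of 1 gene, and the dotted line the detection limit.

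Genes of excitatory transmission followed. Gria2, the AMPA receptor subunit that limits calcium entry, had 12.53, 12.59, 12.49 and 12.46, ahead of Gria1 and Gria3, with means of 11.80 ± 0.26 and 11.79 ± 0.09, and Gria4 with 7.23 ± 0.20. Grin2b, an NMDA receptor subunit, had a mean of 11.70 ± 0.20, and led Grin3a by 1.16 ± 0.29. The next detected Grin2b probe had a mean of 6.34, and Grin3a led when detected probes were averaged. Grin2a had 7.55, 7.02, 7.16 and 7.61, and Grin2d and Grin3b were undetected. Grin1 was not analysed here. Camk2b and Camk2a, the kinase subunits abundant in dendrites, had means of 12.70 ± 0.09 and 12.56 ± 0.19 and changed order between arrays. Slc1a3, an astrocytic glutamate transporter, had 13.45, 13.53, 12.98 and 13.43. It led Slc1a1, the neuronal form, by 2.36 ± 0.21, and Slc1a2, the other astrocytic form, had a mean of 10.08 ± 0.30.

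Vesicular transporters mark the transmitter that a neuron releases. The signal of Slc17a7 exceeded that of Slc32a1, the GABA transporter, on replicates 5, 7 and 8, while on replicate 6 they had 12.28 and 12.31. Slc32a1 had 11.37, 12.31, 11.26 and 11.44, and Slc17a6, the glutamate transporter of thalamic and other subcortical neurons, had 9.37, 10.30, 9.31 and 8.80. Both were highest in replicate 6. Without replicate 6, neither gene had a range over 1 log2 unit. The vesicular monoamine and acetylcholine transporters Slc18a1, Slc18a2 and Slc18a3 were undetected on all 4 arrays.

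Interneuron genes were among the brighter ones. Sst, a peptide of one interneuron class, had 12.81, 12.82, 12.69 and 12.60, and Gad1, which makes GABA, had a mean of 12.29 ± 0.30 and was highest in replicate 6. Gad2 had 11.23, 12.03, 10.75 and 10.98, Pvalb had 9.86, 10.67, 10.61 and 9.93, and Vip had 10.51, 10.08, 10.66 and 10.92. Of 14 interneuron markers, 11 were detected on all 4 arrays, against 53.4% of all named genes. Another 2, Lhx6 and Adarb2, were detected on some arrays, and Dlx5 was undetected. Of the 11 detected on all 4, 6 were highest in replicate 6 and 4 were lowest there.

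Among neuropeptide genes, Sst was followed by Cck, with 12.21, 11.72, 12.62 and 12.47, then by Npy, Pdyn and Vip, with means of 10.74 ± 0.38, 10.58 ± 0.18 and 10.55 ± 0.35. Sst and Cck differed by 0.48 ± 0.48, which is no more than their spread. Of 20 neuropeptide genes, 12 were detected on all 4 arrays, against 53.4% of all named genes. The hypothalamic peptides Avp, Oxt, Hcrt and Pomc were undetected on all 4, as were Gal and Crh, the corticotropin-releasing hormone, which had 5.72, 5.23, 5.70 and 5.72. Penk, a peptide gene abundant in striatum, had 6.60, 8.04, 7.25 and 7.39, and Tac1, another, had 8.02, 9.06, 7.82 and 7.40. Both were highest in replicate 6.

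Most enzymes and carriers of monoamine and acetylcholine neurons were undetected. Of 9 such genes, 7 were below the limit on all 4 arrays, against 38.0% of all named genes. These 7 were Th, Dbh, Tph1, Tph2, Slc6a2, Slc6a3 and Slc6a4. Chat, the enzyme of acetylcholine, was detected on 2 arrays. Ddc, an enzyme that vessels also make, was detected with 7.33, 7.74, 7.10 and 7.35. Drd1, the main dopamine receptor of cortex, had 9.04, 8.73, 8.20 and 8.53, and Drd2 had 6.96, 7.78, 6.30 and 6.64, a gap of 1.70 ± 0.51. Drd3, Drd4 and Drd5 were undetected. The highest Drd2 signal was on replicate 6, where the striatal list was also highest, and a part of striatal tissue in it was not tested.

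Receptors for adrenal steroids lay at or below the limit. Nr3c1, the glucocorticoid receptor, had 6.28, 6.26, 6.32 and 6.08 and was detected on 3 arrays, and Nr3c2, the mineralocorticoid receptor, had 5.45, 5.77, 5.61 and 5.70. The opioid receptor genes Oprm1 and Oprk1 were undetected, and Cnr1, the cannabinoid receptor of cortical interneurons, was detected on 3 arrays with a mean of 6.28. Chrm1, the main muscarinic receptor of pyramidal cells, was also detected on 3 arrays, with 6.25, 6.04, 6.32 and 6.27, below Chrm3 at 8.20 ± 0.20. Of 11 GABA-A receptor genes, 6 were detected, against 53.4% of all named genes. They were led by Gabrb1 at 10.90 ± 0.11, and Gabra4 and Gabra5 were undetected. The order of these receptors may reflect their probes, as Snap25 shows, and no transcript order is drawn from it.

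Glial and vascular genes differed in evenness. Microglial genes were the most even of the cell lists, with a median SD of 0.13 over 13 detected genes and none with a range over 1 log2 unit. Cx3cr1, a chemokine receptor of microglia, had 9.50, 9.48, 9.55 and 9.65, and P2ry12, a nucleotide receptor of resting microglia, had 8.37, 8.20, 8.35 and 8.42. Astrocyte genes were lowest in replicate 7 in 11 of 13 cases, with a mean deviation there of -0.33, against -0.02 in the second table. How many of all detected genes were lowest on that array was not computed. Gfap, the filament protein of astrocytes, had 10.26, 10.43, 9.05 and 10.02, and Aqp4, the water channel of their endfeet, had 11.01, 11.15, 10.23 and 10.86.

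Genes of mural and meningeal cells were lowest in replicate 7 in 8 of 11 cases and highest in replicate 8 in 7. Dcn, a matrix proteoglycan of meningeal fibroblasts, had 9.92, 9.77, 8.71 and 10.00. Endothelial genes were highest in replicate 8 in 8 of 10 cases, but their ranges were small. In the second table, by contrast, the mean deviation of both lists was lowest in replicate 8. It was -0.12 for endothelial genes and -0.25 for mural and meningeal genes, and the mural and meningeal value in replicate 7 was -0.04. Cldn5, a tight junction protein of brain endothelium, had 10.32, 10.40, 10.08 and 10.63. Oligodendrocyte precursor genes did not follow the myelin genes closely. Pdgfra, the growth factor receptor of precursors, had 9.98, 9.76, 9.58 and 9.75, while Sox10, present in the whole lineage, had 9.20, 9.77, 9.14 and 9.03.

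Signals of most genes were close between the 4 arrays. The median SD was 0.145 log2 units and the median range 0.323. Pearson correlations of log2 signal between pairs of arrays ran between 0.982 and 0.991 across detected probes, which are not independent of each other. A range over 1 log2 unit was reached by 285 of 10180 genes, 2.8%. Replicate 6 was the array farthest from the median in 163 of the 285, replicate 7 in 77, replicate 5 in 26 and replicate 8 in 19. As shares these were 57.2%, 27.0% and 9.12% for replicates 6, 7 and 5, against 30.6%, 28.4% and 21.1% of all detected genes, so the share of replicate 7 was near that over all genes. Over replicates 5, 7 and 8 alone, 104 genes, 1.02%, had such a range. Each array was also set against the mean of the other 3. The median absolute difference over all detected genes was 0.123, 0.139, 0.138 and 0.119, so replicate 7 lay about as far out as replicate 6.

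A second probe gave a check that does not depend on the probe chosen. Of the 285 wide genes, 156 were also wide in the second table and 99 had another detected probe. This probe had the same farthest array in 70 of 99 genes (70.7%), against 35.8% of 3737 genes over all, and a range over 1 log2 unit in 50 of the 99. Both probes were read from the same RNA on the same array, so the check bears on the probe and not on the animal.

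Against the background of 2.8%, all 10 detected myelin genes had a range over 1 log2 unit, and 0 of 10 had one without replicate 6. For septal genes the counts were 4 of 6 and 0, and for striatal genes 5 of 9 and 1. Immediate early genes had 7 of 14 and 4, blood genes 3 of 7 and 3, mural and meningeal genes 3 of 11 and 3, and microglial genes 0 of 13 and 0. The wide counts of myelin and septal genes were known beforehand from earlier results of these data.

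**Figure D4:**
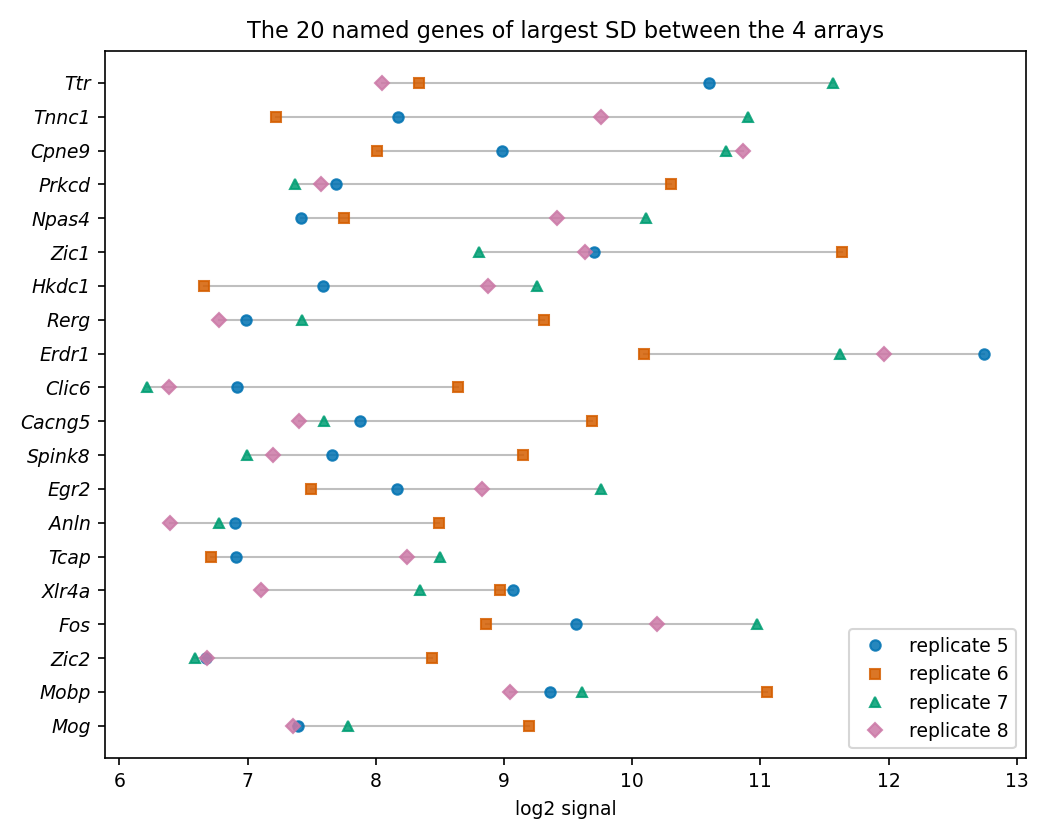
Log2 signal on each of the 4 unstressed arrays for the 20 named genes of largest SD, ordered by SD from top to bottom. Grey lines join the lowest and highest array. Replicate 6 is the highest in Prkcd, Zic1, Rerg, Clic6, Cacng5, Spink8, Anln, Zic2, Mobp and Mog, and the lowest in Tnnc1, Cpne9, Hkdc1, Erdr1, Egr2, Tcap and Fos.

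Among named genes detected on all 4 arrays, the largest SD was that of Ttr, the thyroid hormone carrier made by the choroid plexus, with 10.60, 8.34, 11.57 and 8.05, an SD of 1.72. Clic6, a chloride channel protein also strong in choroid plexus, did not follow it, with 6.92, 8.64, 6.22 and 6.38. Other choroid genes were dim. Kl had 6.66, 6.69, 6.30 and 6.49, Sostdc1, detected on 2 arrays, had 5.90, 6.22, 6.43 and 6.00, and Folr1 was undetected on all 4. A part of choroid tissue in the Ttr signal was not tested.

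A group of genes was higher on replicates 7 and 8 than on replicates 5 and 6. Tnnc1, a troponin C of slow muscle and heart, had 8.17, 7.22, 10.91 and 9.76. Cpne9, a copine, had 8.98, 8.01, 10.73 and 10.86, and its other detected probe had a range of 1.66 log2 units. Hkdc1, a hexokinase-like gene, had 7.59, 6.66, 9.26 and 8.87, and Tcap, a sarcomeric protein, had 6.91, 6.71, 8.50 and 8.25. Lamp5, an upper-layer gene, had 11.69, 11.47, 12.06 and 12.26. Otof, another, had 8.64, 7.20, 8.45 and 8.85, so it was low on replicate 6 alone. Replicate 6 was lowest in each of these 6 genes.

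Erythroid genes were highest on replicate 5. Hbb-bs, a beta-globin, had 14.49, 13.40, 13.43 and 13.85, and Hba-a1, an alpha-globin, had 14.32, 13.37, 13.38 and 13.75. Near-identical globin genes may share probe signal. Alas2, the erythroid enzyme of heme synthesis, had 9.30, 7.49, 7.48 and 7.90. Col6a1, a collagen chain, had 11.31, 10.45, 9.84 and 10.24 and was likewise highest on replicate 5. That array is the one that carried the olfactory mucosa genes, and whether these differences share a source was not tested.

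Other genes were lowest on replicate 7. Rian, a maternally expressed non-coding RNA, had 8.06, 7.61, 6.20 and 7.36. Nnat, a paternally expressed gene, had 8.36, 8.48, 7.03 and 8.18, and 2 other detected probes had ranges of 1.24 and 1.52. Inmt, a methyltransferase, had 8.35, 8.98, 7.56 and 9.34, and Lypd1, a membrane protein that binds nicotinic receptors, had 11.44, 11.61, 10.04 and 10.92. On replicate 8, Xlr4a, an X-linked gene, was lowest with 9.07, 8.97, 8.34 and 7.10. Erdr1 spanned 12.74, 10.09, 11.62 and 11.97, and its other detected probe spanned 2.04 log2 units.

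Immediate early genes, which neurons transcribe within minutes of activity, were highest on replicate 7 in 11 of 14 cases and lowest on replicate 6 in 7. Their mean deviation from the 4-array mean was -0.19, -0.44, 0.55 and 0.08. No share of all detected genes highest or lowest on these arrays was computed beside the counts. Npas4, an activity-dependent transcription factor, had 7.42, 7.75, 10.11 and 9.41, a range of 2.69 log2 units. Fos had 9.57, 8.86, 10.97 and 10.19, Arc, a synaptic protein whose RNA travels into dendrites, had 9.23, 8.97, 10.80 and 9.89, and Egr2 had 8.17, 7.49, 9.76 and 8.83. In Fos, Arc and Egr2 the order was replicate 7, 8, 5 and 6 by falling signal, and in Npas4 replicates 5 and 6 changed places. In the second table the list deviation was -0.50, -0.43, 0.51 and 0.42.

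The other members varied less. Egr1, the brightest, had 12.92, 12.93, 13.57 and 13.10, and Dusp1, a phosphatase of MAP kinases, had 10.27, 9.83, 11.23 and 10.86. Junb had 9.85, 9.13, 10.52 and 10.01, and Fosb had a mean of 8.90 ± 0.46. Jun was level, with 8.56, 8.71, 8.60 and 8.59, and Nr4a2 ran the other way, with 7.70, 7.99, 7.21 and 7.19. Nr4a1 and Ier2 were undetected on all 4 arrays.

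**Figure D5:**
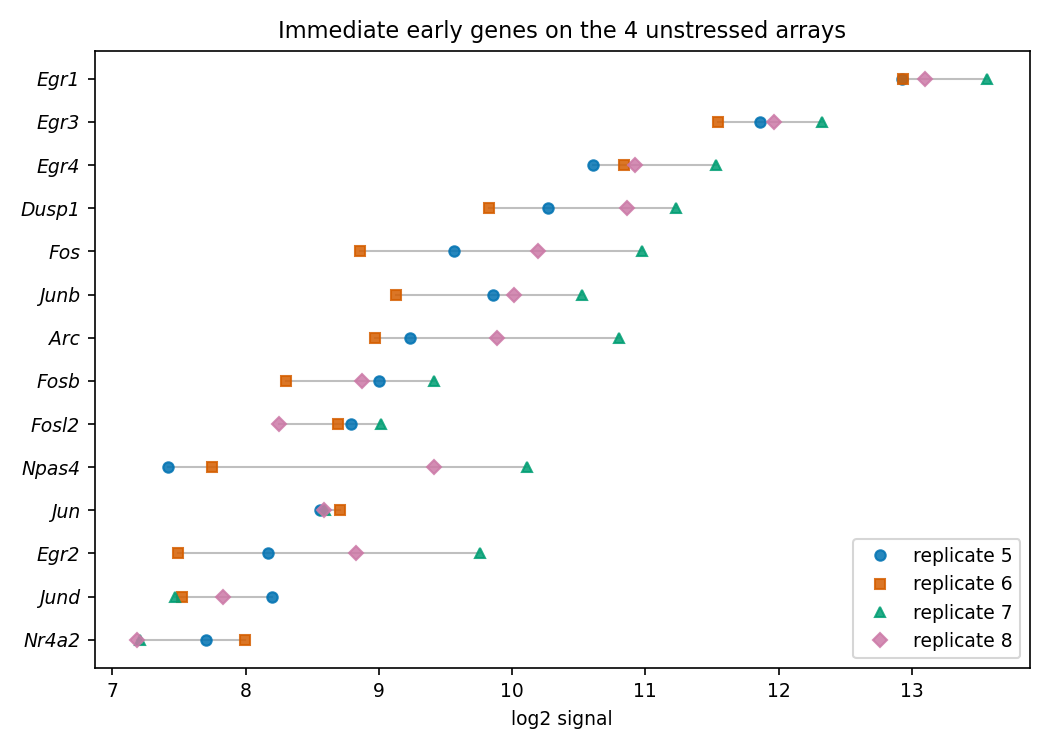
Log2 signal of the 14 detected immediate early genes on each of the 4 unstressed arrays, ordered by mean. Grey lines join the lowest and highest array. Replicate 7 is highest in 11 genes, and not in Jun, Jund and Nr4a2.

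The immediate early genes Npas4, Egr2, Arc and Fos, had a range over 1 log2 unit without replicate 6, and the promoters of the 3 listed by RefSeq are shown because these genes moved together between the punches. CREB, a factor activated by calcium and cAMP, binds an element whose core is TGACG. Each line gives the 250 bases before the start on build GRCm38.p6, 5′ to 3′ on the gene's strand, with that core and its reverse complement, CGTCA, in capitals. Egr2 has 5 listed starts, of which the middle one was used. The regions are chr19:4989972-4990221 (minus strand) for Npas4, chr10:67537619-67537868 (plus strand) for Egr2 and chr12:85473640-85473889 (plus strand) for Fos.
Npas4: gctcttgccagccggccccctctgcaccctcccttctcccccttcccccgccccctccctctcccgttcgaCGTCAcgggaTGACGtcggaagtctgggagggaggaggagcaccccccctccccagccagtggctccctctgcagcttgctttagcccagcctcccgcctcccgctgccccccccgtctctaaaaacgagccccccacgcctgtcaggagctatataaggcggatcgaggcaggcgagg
Egr2: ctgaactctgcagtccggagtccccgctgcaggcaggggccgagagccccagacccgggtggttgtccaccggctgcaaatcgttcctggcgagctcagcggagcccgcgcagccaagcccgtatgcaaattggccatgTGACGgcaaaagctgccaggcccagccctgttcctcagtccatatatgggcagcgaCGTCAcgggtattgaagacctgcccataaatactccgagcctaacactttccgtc
Fos: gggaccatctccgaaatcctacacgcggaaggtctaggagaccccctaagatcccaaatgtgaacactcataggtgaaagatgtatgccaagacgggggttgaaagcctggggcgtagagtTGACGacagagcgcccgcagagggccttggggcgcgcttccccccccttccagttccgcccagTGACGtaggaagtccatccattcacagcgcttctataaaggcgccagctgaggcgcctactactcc
Each of the 3 promoters held 2 copies of the core and none held the full palindrome TGACGTCA. The copies began 179 and 169 bases before the start in Npas4, 111 and 55 in Egr2 and 129 and 66 in Fos. Among 27025 promoters of the same length, 17.7% held at least 1 core and 3.90% at least 2, on either strand. Of 11 detected immediate early genes with a listed promoter, 8 held at least 1 core and 6 at least 2. Fosl2, which was highest on replicate 7, held none. Of the genes that were not highest there, Jun and Jund held none and Nr4a2 held 4. A match describes letters in this window and not binding.

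The most even bright genes bound the scale from below. Psmc4, an ATPase subunit of the proteasome, had 11.37, 11.39, 11.35 and 11.37, an SD of 0.014. Ahcyl1, Smap2, Luzp2, Krtcap2, Cdk11b, Cd81, Fto, Emc4 and Klhl17 completed the 10 of smallest SD among the genes of highest signal, with SDs up to 0.021. Cd81, a tetraspanin, had 13.12, 13.15, 13.16 and 13.14. Emc4, a membrane protein insertion subunit, had 11.45, 11.46, 11.44 and 11.49, and its other detected probe, with a mean of 11.45, had a range of 0.09. The other detected probe of Ahcyl1 had a range of 0.42, so evenness also depended on the probe.

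Ppm1f, a protein phosphatase named in the title of the study, had 11.04, 10.99, 10.75 and 11.04. Its mean of 10.95 ± 0.14 (SD, n = 4) lay at the 87.9th percentile of detected named genes. One other detected probe of the gene had a mean of 8.09 and a range of 0.43 log2 units. The gap between these probes lies above the median and below the 90th percentile of such gaps.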

How the data were processed

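Amplified, biotin-labelled RNA was read on Illumina bead arrays, per the labels' protocols. The deposited values are linear probe intensities, already close in distribution between arrays. How the authors normalized them is stated by neither the labels nor the files read here. Detection p-values per probe and array were deposited by the authors in a second table, whose own signals differ from the value table under the same sample names. On each array no p-value rose as the signal of the value table rose (0% of steps), but in the second table between 33.8% and 34.7% of steps ran the other way, so the value table was used and the other only as an alternative.

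Signals were taken as log2 with no pseudocount (Python 3.11.15, pandas 2.3.3, numpy 2.4.6), and the normalization alternatives used limma 3.58.1 in R 4.3.3. Probe names came from the platform annotation: 34885 probes had 1 symbol, 18 had several and 10378 had none. With 1 group of 4 arrays no test was made, and SDs cover the spread between arrays only. The number of arrays limits the precision. No column was left unmapped (0). The calculation of ranges was tested on simulated data.

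Named genes were the 20 of highest signal, the 20 of largest SD, the 20 of largest range without replicate 6, the 5 farthest above and below the other arrays on each array, the 10 most even bright genes, members of fixed family and marker lists, and Ppm1f. Families in the plot of detection were formed from symbol patterns. Unnamed and predicted genes were left out of the ranked sets. Members and lists were chosen with earlier results of these data known. The nasal list, the genes detected on 1 array and Krt12 were chosen after their values were seen.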

Additional observations from a re-analysis of the deposited data

Results flagged for a closer look

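Of 134 genes and marker lists examined, 13 had 1 array far from the other 3 by Dixon's ratio. Chance marks about 1 in 20 groups, and 526 of all 10180 detected genes (5.17%) met the same criterion. The 134 hold genes that were chosen because 1 array stood out or because their spread was large. Omp, Cyp2a5, Cyp2g1, Isl1, Prkcd and Zic2 are among these, and the spread of the septal list was known beforehand. The flags of such items follow from the choice, and the share flagged among the 134 is not to be set beside that rate. On replicate 6, Prkcd was high at 10.30, Isl1 at 8.35, Slc32a1 at 12.31, Zic2 at 8.44 and the septal list at 0.76. Crh was low there at 5.23, below the detection limit, and Eno3 was low at 6.98. On replicate 5, Omp was high at 9.88, Cyp2a5 at 9.83 and Cyp2g1 at 7.97. On replicate 7 the astrocyte list was low at -0.33, and on replicate 8 Emx1 was high at 6.72 and the choroid and ependymal list was low at -0.58. Of the 4 detected genes of that list, only Ttr, at -1.59, was lowest on replicate 8, and 3 were lowest on replicate 7. The median deviation of the list on replicate 8 was -0.35. List values are mean deviations from the 4-array mean, and the others are log2 signals. The cause of these differences was not tested.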

How the results depend on the processing

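The count of detected probes ran between 15978 and 22530 over its alternatives and stayed within 1.5 times 18207. The median gap between probes of a gene was 0.857 with a detection limit of 0.01. The count of genes with a range over 1 log2 unit was 182 after 50 was added to each signal, and leaving out each replicate gave between 107 and 241. For a given probe, fewer arrays cannot give a wider range. Detection and the probe of each gene were set anew on the arrays kept, so 104 of the 107 genes without replicate 6 were shared with the main count. Replicates 6 (107) and 7 (176) moved the count most. It was 287 with cyclic loess normalization, with 282 shared. Quantile normalization gave the same 285 genes, but the deposited arrays already have nearly equal distributions, so it could change little. The second deposited table gave 323 such genes, of which 156 were shared. The myelin deviation in replicate 6, 1.02, was 0.149 in the second table, and between 0.819 and 1.00 with another replicate left out. The astrocyte deviation in replicate 7 was -0.02 and the myelin deviation in replicate 8 was -0.13 in that table, and that of replicate 8 was -0.27 without replicate 6. The cause was not tested. The leading paralogue was kept in 34 of 40 families when probes were averaged (changed: 14-3-3, aldolase, synaptotagmin, synapsin and complexin, NMDA receptor and hemoglobin families), and in 39 without replicate 6. No paired analysis was possible because only 1 group was used and its replicate numbers do not repeat. Low signals near the detection limit, such as those of Nr3c1 and Chrm1, have no reliable order.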
